A study of Mus musculus with 12 samples.

Results

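Complexins and synapsins are small gene families that act on synaptic vesicles, and 5 of their members, Cplx1, Cplx2, Syn1, Syn2 and Syn3, were followed here in the mouse cerebellum. The members were taken by gene symbol, 5 rows of the 18394 in the count table, and all 5 passed the filter on low counts that left 15467 tested genes. The families were chosen by measured values of this same comparison, namely the fold changes of Cplx2 and Syn2, which had been called lower. The changes below are therefore a description of these 12 libraries and no independent evidence for themselves.

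The study measured messenger RNA in 12 cerebella by stranded sequencing, 6 from wild-type mice (WT) and 6 from mice labelled as deltaalpha6-Cre Crfr1 knock-out (cKO). Crfr1, listed as Crhr1 in the count table, binds the stress peptide corticotropin-releasing factor. The driver carries the name of the α6 GABA-A subunit, whose gene Gabra6 is switched on in granule cells. The labels give no strain, age or sex, and they name no group that carries the driver alone, so receptor loss, the driver and DNA linked to either cannot be told apart. Each library is a whole cerebellum and averages every cell type in it, so fewer cells of a type and less RNA per cell cannot be told apart either.

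Complexins bind the assembled SNARE complex, the protein bundle that pulls vesicle and plasma membranes together, and both hold it back and help it fire when calcium reaches synaptotagmin. Synapsins coat vesicles, tie them into the reserve pool behind the release site and let go of them when kinases phosphorylate them. In the cerebellum the granule cells, whose axons are the parallel fibres, make up most neurons and most glutamatergic terminals.

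Cplx1 and Cplx2 are close copies, which matters for how reads can be assigned. Their coding sequences of 402 bases each, taken from the GENCODE M21 transcripts (mm10), were identical at 80.75% of aligned bases, and the longest run shared exactly was 32 bases. The first 90 coding bases of each, which hold that run, are shown with the 11 differing bases in capitals. In Cplx1 they lie in exons 2 and 3 of 4 on the minus strand, at chr5:108548506-108548536 and chr5:108525509-108525567, and in Cplx2 in exons 2 and 3 of 4 on the plus strand, at chr13:54378669-54378699 and chr13:54378812-54378870.
Cplx1: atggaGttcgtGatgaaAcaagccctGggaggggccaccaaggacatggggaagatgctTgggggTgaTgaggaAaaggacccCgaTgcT
Cplx2: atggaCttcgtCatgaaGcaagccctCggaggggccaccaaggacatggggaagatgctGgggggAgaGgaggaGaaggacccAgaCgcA

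Syn1 and Syn2 are less alike, with 75% identity over aligned coding bases and a longest exact run of 26. The 90 coding bases around that run are shown with the 18 differing bases in capitals, from exons 7 and 8 of 13 in both genes (Syn1, minus strand, chrX:20865119-20865167 and chrX:20864989-20865029, and Syn2, plus strand, chr6:115254684-115254732 and chr6:115261655-115261695). Syn3 shared 72.7% with Syn1 and 72.24% with Syn2. No stretch of 50 bases from the transcripts of any member occurred in those of another member, so an exact read of that length could not be exchanged between them. Read length is not given in the sources used here.
Syn1: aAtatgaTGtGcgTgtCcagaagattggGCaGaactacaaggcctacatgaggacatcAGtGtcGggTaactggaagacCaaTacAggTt
Syn2: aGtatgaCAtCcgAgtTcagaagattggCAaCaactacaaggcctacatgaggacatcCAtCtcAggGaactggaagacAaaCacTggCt

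Of the 5 members, 2 fell in cKO cerebella (Cplx2 and Syn2), 0 rose and 3 were not called. A call here means an adjusted p under 0.05 in edgeR's quasi-likelihood test, with Benjamini-Hochberg adjustment over all 15467 tested genes. Of all tested genes 2.64% were called, made up of 1.38% lower and 1.27% higher. The CPM values of the groups did not overlap for Cplx2 and Syn2, nor for 2.09% of all tested genes. Because the same comparison led to the choice of the families, nothing is read from the members' counts against these shares. The median log2 fold change (cKO over WT) of the 5 members was −0.06, beside 0.00 over all tested genes.

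**Figure D1:**
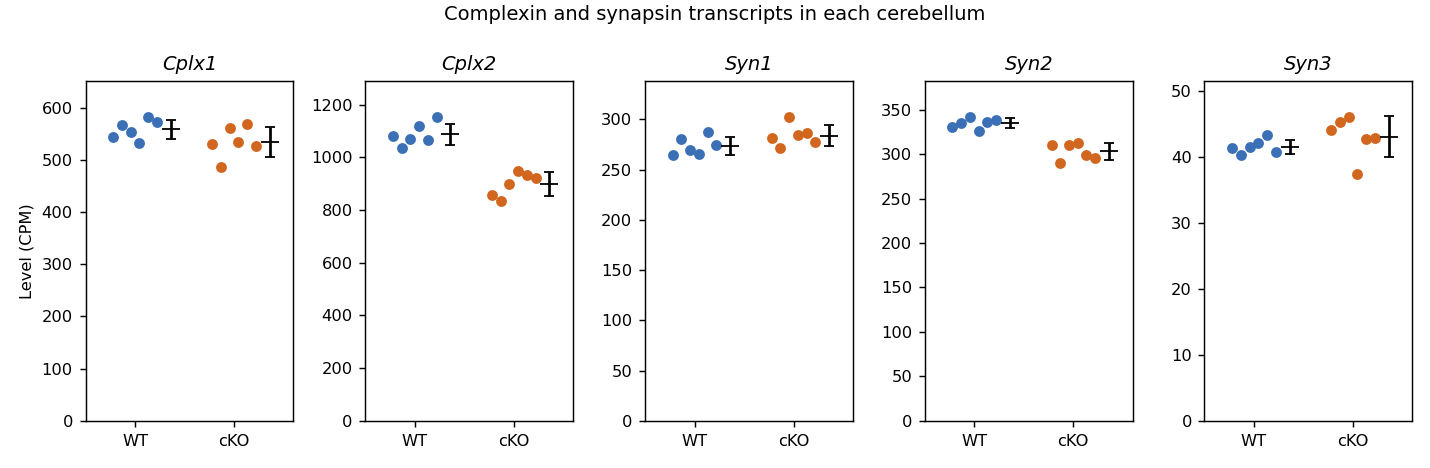
Level of each gene in each of the 12 libraries, in CPM (read counts relative to the TMM-scaled library total), with a separate y axis from 0 for each gene. Points are libraries in replicate order, bars the group mean ± SD (n = 6). The cKO points of Cplx2 and Syn2 all lie below the WT points, while the groups overlap for Cplx1, Syn1 and Syn3.

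Cplx2 (ENSMUSG00000025867.8, chromosome 13, 54371349 to 54383917, plus strand, mm10), the complexin with the highest count here, had a lowest, median and highest level of 1037, 1076 and 1151 CPM in WT and 833, 909 and 949 CPM in cKO. No cKO library reached the lowest WT library. The group means were 1087 ± 40.8 and 898 ± 45.5 CPM (SD, n = 6 each), a log2 fold change of −0.27 (SE 0.03, 95% interval −0.34 to −0.21, edgeR adjusted p = 4.34e-05). The lowest level in each group belonged to replicate 2, and each library held 25658 to 71455 Cplx2 counts.

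Cplx1 (ENSMUSG00000033615.9, chromosome 5, 108518554 to 108550024, minus strand), which encodes the paralog that shares the SNARE-binding role, ranged from 533 to 581 CPM in WT (median 560) and from 486 to 568 CPM in cKO (median 532). The groups overlapped, with 3 cKO libraries below the lowest WT library and none above the highest. Its means were 558 ± 18.5 and 534 ± 28.8 CPM (SD, n = 6 each), and the log2 fold change of −0.06 (SE 0.03, 95% interval −0.13 to 0.01) did not pass (edgeR adjusted p = 0.395). The Cplx2 estimate of −0.27 lies outside this interval, but the interval leaves out the error of the Cplx2 value and is no test between the genes. Whether the changes of these paralogs differ was not tested, since the pair was chosen with this result known.

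The ratio of Cplx2 to Cplx1 counts within a library, which does not depend on library scaling, was 1.83 to 2.098 in WT and 1.602 to 1.78 in cKO, with means of 1.95 ± 0.105 and 1.68 ± 0.0736 (SD, n = 6 each). This ratio contains the Cplx2 values that led to the choice of the families, so it restates them and is no test of a difference between the paralogs. Per kb of exon, the share of Cplx1 in complexin counts was 53.6 ± 1.34% in WT libraries and 57.2 ± 1.07% in cKO libraries (SD, n = 6 each).

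The other complexin genes were barely detected. Cplx3, known mainly from retinal ribbon synapses, measured 1.55 ± 0.365 CPM in WT and 1.37 ± 0.470 CPM in cKO (SD, n = 6 each), with 27 to 100 counts per library and no call (log2 fold change −0.17, edgeR adjusted p = 0.790). Cplx4 had 0 to 2 counts per library and was removed by the filter.

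Syn2 (ENSMUSG00000009394.13, chromosome 6, 115134902 to 115282006, plus strand), the synapsin that tethers reserve vesicles at many glutamatergic terminals, had a lowest, median and highest level of 326, 336 and 341 CPM in WT and 290, 305 and 312 CPM in cKO. The WT libraries lay close together, with a coefficient of variation of 1.68%, and every cKO library was below them. Means were 335 ± 5.61 and 303 ± 9.35 CPM (SD, n = 6 each), a log2 fold change of −0.14 (SE 0.02, 95% interval −0.19 to −0.09, edgeR adjusted p = 0.00154). In linear terms Syn2 fell by 9.42% and Cplx2 fell by 17.4%.

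Syn1 (ENSMUSG00000037217.15, chromosome X, 20860511 to 20921004, minus strand), the founding synapsin and a widely used neuronal marker, had the opposite sign without passing. It ranged from 265 to 287 CPM in WT (median 272) and from 272 to 302 CPM in cKO (median 283), and all but 1 cKO library lay within the WT range. Its means of 274 ± 8.77 and 284 ± 10.3 CPM (SD, n = 6 each) gave a log2 fold change of 0.05 (SE 0.03, 95% interval −0.01 to 0.11, edgeR adjusted p = 0.407).

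Syn3 (ENSMUSG00000059602.14, chromosome 10, 86055125 to 86498896, minus strand), a synapsin best known from developing neurons, was the least abundant member. It ranged from 40.3 to 43.3 CPM in WT (median 41.4) and from 37.3 to 45.9 CPM in cKO (median 43.5). The cKO values spread around the WT ones, 3 above and 1 below their range, with a coefficient of variation of 7.11% against 2.56% in WT. Syn3 had a log2 fold change of 0.05, with an SE of 0.04 and a 95% interval from −0.04 to 0.14 (edgeR adjusted p = 0.635). Its sign turned with surrogate variables as covariates (−0.0081, SE 0.05, adjusted p = 0.992), with a score of forebrain and midbrain genes as covariate (−0.0017, SE 0.04, adjusted p = 0.992) and with an interneuron score described below (−0.08, SE 0.06, adjusted p = 0.804).

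Syn2 counts per Syn1 count within a library were 1.17 to 1.27 in WT and 1.03 to 1.102 in cKO, with means of 1.22 ± 0.0348 and 1.07 ± 0.0284 (SD, n = 6 each). This ratio likewise restates the Syn2 values, and whether Syn2 and Syn1 differ in their change was not tested. The ratio of Syn3 to Syn1 counts averaged 0.152 in each group of 6, with an SD of 0.00536 for WT and 0.0117 for cKO. Per kb of exon, Syn1 made up 61.9 ± 0.659% of synapsin counts in WT and 64.9 ± 0.547% in cKO, Syn2 35.5 ± 0.640% and 32.5 ± 0.603%, and Syn3 2.52 ± 0.0778% and 2.64 ± 0.203% (SD, n = 6 each).

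**Figure D2:**
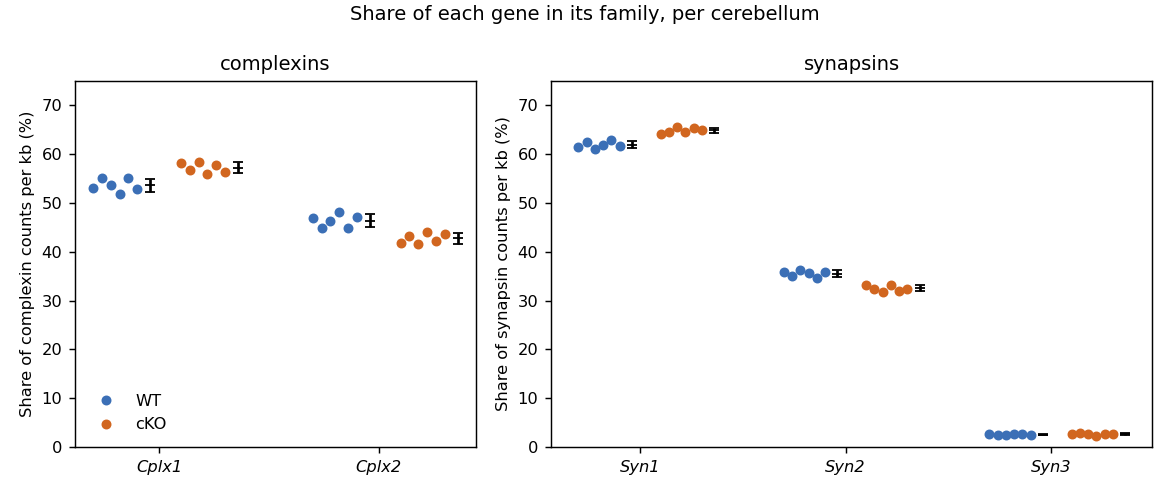
Share of each gene in its family's counts per kb of exon, in percent, with complexins on the left and synapsins on the right. Points are libraries, bars the group mean ± SD (n = 6). Cplx2 and Syn2 take a smaller share in every cKO library than in any WT library.

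Levels of different genes were compared per kb of annotated exon. In WT the order was Cplx1 with 255 ± 8.43 CPM per kb, Cplx2 with 221 ± 8.27, Syn1 with 83.0 ± 2.66, Syn2 with 47.6 ± 0.798 and Syn3 with 3.38 ± 0.0866 (SD, n = 6 each). No neighbours in this order overlapped in WT: the lowest Cplx1 library, at 243 CPM per kb, was above the highest Cplx2 library, at 234. The order of Cplx1 and Cplx2 rests on the length correction, since in CPM Cplx2 was higher (means of 1087 and 558 in WT). The order of Syn1 and Syn2 rests on the length used. With the longest transcript in place of all exons, Syn2 measured 86.8 ± 1.46 CPM per kb in WT and Syn1 84.0 ± 2.69 (SD, n = 6 each), which is within their spread, and Syn3 8.69 ± 0.223. Complexin transcripts were thus more abundant per kb than synapsin transcripts under both lengths. For Cplx1 (2189 bases) and Cplx2 (4928 bases) both lengths are the same, so the change of length was no test of their levels.

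**Figure D3:**
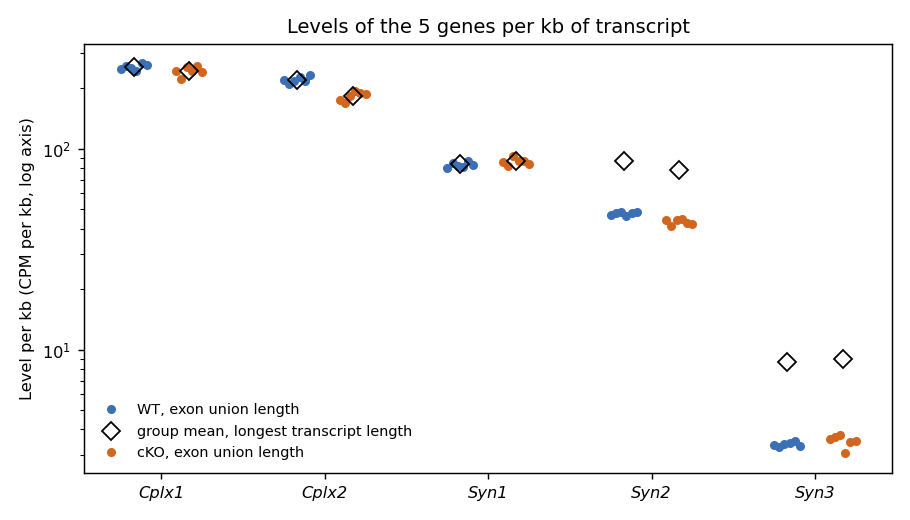
Level of each gene per kb, in CPM per kb on a log axis. Points are libraries with the union of annotated exons as length, open diamonds the group means with the longest annotated transcript as length. The lengths change the level of Syn2 and Syn3. For each complexin both lengths are the same, so its level could not move.

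The synapsin genes host genes for inhibitors of matrix metalloproteinases in their introns, on the opposite strand: Timp1 lies within Syn1, Timp4 within Syn2 and Timp3 within Syn3. Annotated exons overlap by 0, 90 and 1733 bases, or 0%, 1.28% and 14.1% of the host's exon bases. The library kit kept strand, but how the counting used it is not stated, so reads over the shared bases of Syn3 and Timp3 may have been assigned either way. Timp4 measured 127 ± 6.36 CPM in WT and 126 ± 6.50 in cKO, beside the Syn2 change, with a log2 fold change of −0.01 (SE 0.04, edgeR adjusted p = 0.931, n = 6 each). The sign of Timp4 turned without WT replicate 2, WT replicate 6 or cKO replicate 6 (0.0078 to 0.0088). Timp3 measured 147 ± 4.17 and 145 ± 5.62 CPM and Timp1 0.530 ± 0.0558 and 0.741 ± 0.184 CPM (SD, n = 6 each), neither called (edgeR adjusted p = 0.802 and 0.200). Timp2, the family member outside the synapsins, was not called either (edgeR adjusted p = 0.880).

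Upstream sequence was compared for the members that fell. RefSeq windows (GRCm38.p6) matched 4 of the 5 members by symbol, all but Syn3, and the 250 bases before the start are shown for Cplx2 (chr13:54302306-54302555, plus strand) and Syn2 (chr6:115134652-115134901, plus strand). The Cplx2 window belongs to a RefSeq start 68793 bases upstream of the GENCODE M21 start, whereas the Syn2 window ends at the GENCODE start. The motif TGACG, the core of the cAMP response element, was searched on both strands because the receptor named in the labels signals through cAMP. It was in neither of these windows nor in that of Cplx1. In that of Syn1 it occurred 2 times, because the palindromic site TGACGTCA holds the motif on each strand. The Syn1 window runs past the GENCODE start into the gene. A further Syn2 window inside the gene (chr6:115238744-115238993) did not hold the motif. Of all 32851 RefSeq windows of this length, 17.8% held it. The Cplx2 window was 50.8% G or C with 7 CpG, and the Syn2 window shown 61.2% with 16. No capitals are used here because neither window shown held the motif.
Cplx2: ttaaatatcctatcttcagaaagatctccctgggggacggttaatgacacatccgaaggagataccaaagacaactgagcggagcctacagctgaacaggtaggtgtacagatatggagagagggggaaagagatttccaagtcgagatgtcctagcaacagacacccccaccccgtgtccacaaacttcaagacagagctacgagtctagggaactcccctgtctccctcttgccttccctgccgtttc
Syn2: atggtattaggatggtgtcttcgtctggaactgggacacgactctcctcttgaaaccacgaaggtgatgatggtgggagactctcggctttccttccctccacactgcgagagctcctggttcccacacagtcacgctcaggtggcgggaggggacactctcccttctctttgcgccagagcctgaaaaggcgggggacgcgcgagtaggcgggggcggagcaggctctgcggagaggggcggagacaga

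The partners of complexin in the fusion step were not called. Of 11 genes of the vesicle fusion core, which includes the SNARE proteins and the factors that assemble and recycle them, 0 passed in edgeR, 3 had an unadjusted p under 0.05, DESeq2 called 0 and limma-voom 0, and the median log2 fold change was 0.03. Snap25, the plasma membrane SNARE, was nearest (log2 fold change 0.07, SE 0.03, edgeR adjusted p = 0.198). Vamp2, the vesicle SNARE, had −0.02 (SE 0.02, edgeR adjusted p = 0.807).

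The synaptotagmin and Doc2 genes listed here, which include calcium sensors that trigger release with complexin, moved both ways. Of 11, 2 fell and 1 rose in edgeR, where 2.64% of all tested genes were called, and the median log2 fold change was −0.06. In that list 5 genes had an unadjusted p under 0.05, DESeq2 called 4, adding Doc2b, and limma-voom called 3. The list was chosen with earlier results of these data known, so nothing is read from these counts. Syt1, the classical fast calcium sensor, went from 601 ± 21.6 to 457 ± 7.81 CPM (SD, n = 6 each, edgeR adjusted p = 2.46e-08). Syt2, its fast counterpart in hindbrain, rose 1.16-fold, and Syt9, another fast sensor, fell by 11.95%. Its levels were 76.3 ± 2.54 CPM in WT libraries and 67.1 ± 1.32 CPM in cKO libraries (SD, n = 6 each). For these 3 genes no cKO library overlapped a WT library, which held for 2.09% of all tested genes.

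Active zone genes, which dock and prime vesicles for the step that complexin acts on, gave 3 calls of 16, all higher. Of all tested genes 2.64% were called. The list had a median log2 fold change of 0.04, with 11 positive and 5 negative values. In edgeR 9 of the 16 had an unadjusted p under 0.05. These include Unc13c (log2 fold change −0.11), Rims4 (−0.10) and Rims2 (−0.05), which were lower in cKO. DESeq2 called 6 of the 16, and limma-voom the same 3 as edgeR. Unc13a, the Munc13 priming factor, had a log2 fold change of 0.16 (SE 0.04, edgeR adjusted p = 0.0356), Bsn, the scaffold bassoon, 0.10 (SE 0.03, edgeR adjusted p = 0.0382) and Ppfia1, a liprin, 0.08 (SE 0.02, edgeR adjusted p = 0.0345). These calls were close to the threshold. When 1 library at a time was left out, Ppfia1 kept its call in 3 fits, those without WT replicate 5, cKO replicate 5 or cKO replicate 6, and not in 9, where adjusted p ran from 0.0539 to 0.0779. Leaving out any of WT replicates 2 to 5 or cKO replicates 3 to 5 ended the call of Unc13a (adjusted p = 0.0507 to 0.102). Leaving out WT replicate 1, 3, 4 or 6, or any of cKO replicates 3 to 5, ended that of Bsn (adjusted p = 0.0571 to 0.0921). With surrogate variables all 3 lost their calls (adjusted p = 0.528 for Ppfia1, 0.326 for Unc13a and 0.170 for Bsn), and Ppfia1 also with the forebrain score (0.128) and a granule cell score (0.0547).

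Vesicle membrane genes gave 0 calls of 17 in edgeR, with 3 at an unadjusted p under 0.05, 1 (Slc17a7) called by DESeq2 and 0 by limma-voom, and a median log2 fold change of −0.01. Slc17a7, the vesicular glutamate transporter of parallel fibres, was nearest (log2 fold change −0.13, SE 0.04, edgeR adjusted p = 0.0585), and Syp, the abundant vesicle protein synaptophysin, had −0.03 (SE 0.02, edgeR adjusted p = 0.461).

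Of 19 kinase and phosphatase genes that act on synapsins, Camk2b rose and 18 were not called, with a median log2 fold change of 0.01. Camk2b, the β subunit of the calcium/calmodulin kinase that phosphorylates synapsin I, had a log2 fold change of 0.11 (SE 0.03, edgeR adjusted p = 0.0355). Leaving out WT replicate 1, 2, 4 or 6, or any of cKO replicates 3 to 5, ended the call (adjusted p = 0.0570 to 0.0864), as did surrogate variables (0.382) and the forebrain score (0.0543).

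**Figure D4:**
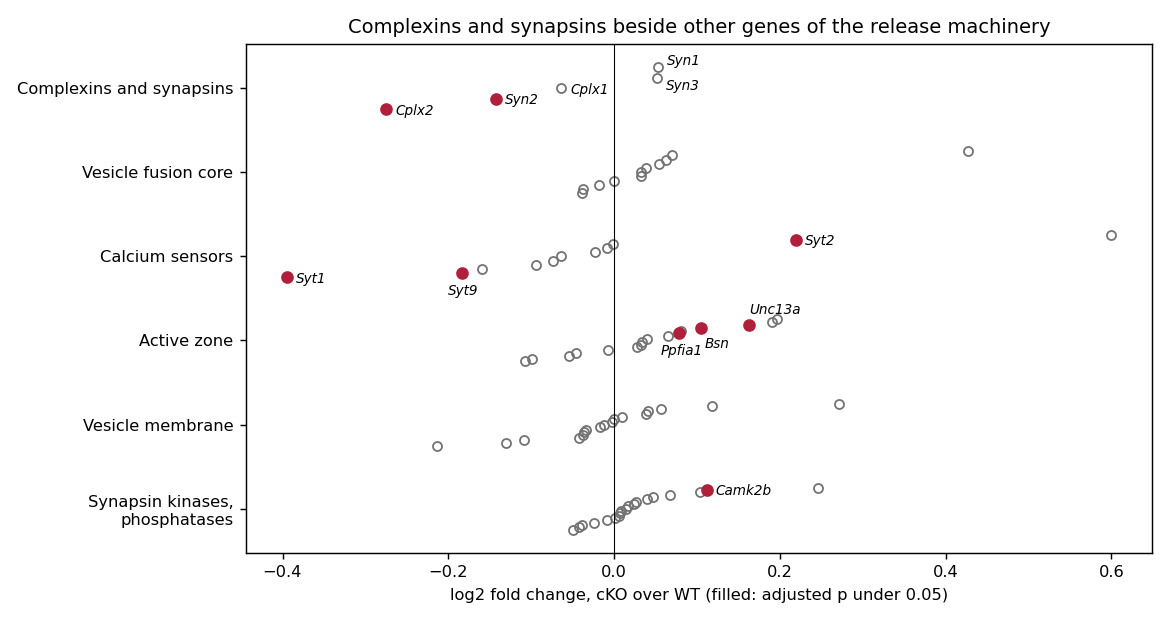
Log2 fold change (cKO over WT) of the 5 complexin and synapsin genes and of 5 other lists of genes around vesicle release, each point 1 gene, filled where the adjusted p was under 0.05. Cplx2 and Syn2 lie to the left with Syt1 and Syt9, and the called active zone genes lie to the right.

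Some genes followed nearly the same course as Cplx2 and Syn2 over the 12 libraries. Likeness was measured as the root mean square difference between log2 CPM profiles, each centred on its own mean, over 13821 genes with a mean of at least 1 CPM. The profiles nearest to Cplx2 were those of Reln, the secreted glycoprotein reelin of granule cells, at 0.048, Rab27a, a small GTPase of secretory vesicles, at 0.056, and Ntrk3, the neurotrophin-3 receptor, at 0.058. For comparison, the log2 level of Cplx2 itself varied by 0.15 around its mean, and the median gene differed from it by 0.17. All 3 were lower in cKO, as a profile like that of Cplx2 must be.

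The profiles nearest to Syn2 were those of Slc25a28, a mitochondrial iron carrier, at 0.031, Nrip3 at 0.032 and Map1lc3a, an autophagosome protein, at 0.035, where the log2 level of Syn2 varied by 0.079 and the median gene differed by 0.11. Slc25a28 went from 38.2 ± 0.756 to 34.5 ± 0.837 CPM and Nrip3 from 146 ± 1.98 to 133 ± 5.13 CPM (SD, n = 6 each). With surrogate variables the calls of Rab27a, Slc25a28, Nrip3 and Map1lc3a were lost (adjusted p = 0.126, 0.148, 0.117 and 0.318). Map1lc3a (log2 fold change −0.12, SE 0.03, edgeR adjusted p = 0.0225) was also not called when WT replicate 2, 3 or 5, or cKO replicate 1 or 2, was left out (adjusted p = 0.0504 to 0.0615), nor with the forebrain or granule cell score (0.0812 and 0.0653).

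WT libraries held 23803779 to 62104185 counts and cKO libraries 32316716 to 58710874 counts. Crhr1, the targeted gene, had 97.6 ± 4.31 CPM in WT libraries and 98.8 ± 6.00 CPM in cKO libraries (SD, n = 6 each) and was not called (edgeR adjusted p = 0.889). The labels do not say which part of the gene is deleted, so counts over the whole gene do not check the knockout. The driver's gene, Gabra6, had 813 ± 56.1 and 623 ± 30.0 CPM (SD, n = 6 each). It was called lower (log2 fold change −0.38, SE 0.04, edgeR adjusted p = 1.45e-05). The cerebellar markers Zic1, Pcp2, Calb1 and Gdf10 were well above 0, with group means from 153 to 1007 CPM.

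Markers of other cell types moved with the groups in places. The summed level of 12 markers of inhibitory interneurons was 814 to 840 CPM in WT and 706 to 805 CPM in cKO, without overlap, and 1 of the 12 was called lower and 11 had negative log2 fold changes. cKO replicate 2, the cKO library lowest in Cplx1, Cplx2, Syn1 and Syn2, was also lowest in that sum, with 706 CPM. Of 16 granule cell markers 5 fell and 3 rose, and their sum was 8218 to 8515 CPM in WT and 7814 to 8432 CPM in cKO. The sum of 9 markers of unipolar brush and nuclear neurons, of which 8 were tested, 2 fell and 1 rose, was higher in cKO, at 988 to 1054 CPM against 935 to 952 CPM in WT. Microglial sums were 151 to 163 CPM in WT and 158 to 185 CPM in cKO, with 2 of 9 markers called higher. Purkinje cell sums were 8550 to 8879 and 7952 to 9032 CPM and forebrain and midbrain sums 191 to 203.2 and 187 to 210 CPM.

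Scores made from the granule cell and interneuron lists were added to the model as covariates after the data were seen. With the granule cell score (without Gabra6) Cplx2 had a log2 fold change of −0.26 (SE 0.03, adjusted p = 0.000177) and Syn2 −0.14 (SE 0.03, adjusted p = 0.00571), close to the main fit. Genotype accounted for 15.9% of the variance of the granule cell score. Its markers were called in both directions and can cancel in the score, so this fit need not hold granule cell content fixed. Whether granule cell content has a part in the falls was not tested. With the interneuron score both calls were lost, at −0.15 (SE 0.04, adjusted p = 0.215) for Cplx2 and −0.09 (SE 0.04, adjusted p = 0.555) for Syn2, and Cplx1 had 0.02 (SE 0.05, adjusted p = 0.953). Genotype accounted for 65.9% of the variance of that score, whose WT and cKO ranges did not overlap, so the score and the genotype cannot be told apart in that fit. Of the other genes named as called above, Syt1 and Syt2 stayed called with it (adjusted p = 0.000311 and 0.0194), and Gabra6 (0.0539), Syt9 (0.202), Unc13a (0.379), Bsn (0.122), Ppfia1 (0.562), Camk2b (0.296) and the 6 genes with like profiles (0.109 to 0.777) did not. Whether interneuron content has a part in the falls was not tested. Without cKO replicate 2, Cplx2 and Syn2 remained called.

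**Figure D5:**
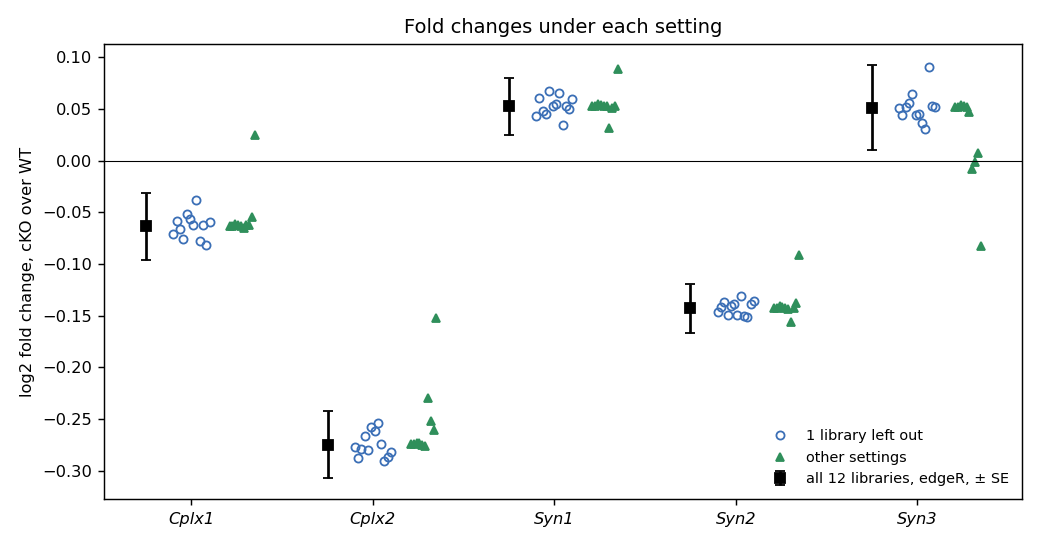
Log2 fold change (cKO over WT) of each gene with all 12 libraries (black square, ± SE), with 1 library left out (open circles, 12 fits) and under the 10 other settings (triangles). The circles of Cplx2 stay between −0.29 and −0.25 and those of Syn2 between −0.15 and −0.13, and the highest triangle of each is the fit with the interneuron score.

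The authors' deposited table of their own DESeq2 comparison gave the same directions and calls for the 5 members. It rests on the same 12 libraries and is no independent evidence. Its fold changes are not on the same scale as those here. The largest SE of any gene there was 0.0488, and Timp1 had a log2 fold change of 0.075 there and 0.48 here. In the authors' deposited table the log2 fold change was −0.25 (SE 0.03, adjusted p = 1.14e-13) for Cplx2 and −0.13 (SE 0.02, adjusted p = 1.74e-07) for Syn2. In the authors' deposited table the adjusted p was 0.404 for Cplx1, 0.399 for Syn1 and 0.698 for Syn3.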

How the data were processed

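For 12 cerebella the authors deposited unnormalised gene counts, 1 row per symbol. Their own table gives for each gene a log2 fold change with standard error, a p-value, an adjusted p-value, a mean signal and a test score (the last pair not used), per the file headers. The submitters' processing notes name STAR, DESeq2 and mm10 with no version. How reads were counted, with which annotation and strand setting, is not given in the sources used here. The authors' deposited table does not state its sign, and all 400 genes called there and here had the same sign.

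The test used edgeR 4.0.16 under R 4.3.3: filterByExpr, TMM scaling, glmQLFit and glmQLFTest on genotype with no covariate, and Benjamini-Hochberg adjustment at 0.05. Standard errors and 95% intervals came from the test statistic. The script was tested on simulated counts. Alternatives used DESeq2 1.42.0, limma 3.58.1 (voom), sva 3.50.0 with 3 surrogate variables, other scalings and filters, marker scores and fits without each library. The granule cell and interneuron scores were added after seeing the data.

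Groups came from the genotype label, and replicate numbers only name libraries. The p-values set the genotype difference against the spread between libraries and treat the libraries as independent. Whether the animals shared litters, which would break that independence, is not given. Chi-square per degree of freedom between libraries of 1 group was at least 2.68, above counting noise, so each was kept as 1 sample. Lengths, positions and coding sequences came from GENCODE M21 and upstream windows from RefSeq (GRCm38.p6), with Python 3.11.15. The rule for named genes took the 5 members, Crhr1, Gabra6, the 4 Timp genes, at most 4 called genes per list by smallest p, and the 3 profiles nearest to each called member. Other genes are named to complete a count or as the best-known partner of a list, chosen after their values were seen. The members and gene lists were chosen with earlier results of these data known. Some listed genes, and 1 list of release genes, are not reported here.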

Additional observations from a re-analysis of the deposited data

How the results depend on the processing

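Cplx2 and Syn2 kept direction and call under DESeq2, limma-voom, other scalings and filters, surrogate variables, the forebrain score, the granule cell score and each fit without 1 library, and lost the call with the interneuron score (−0.152 and −0.0913). With surrogate variables the edgeR adjusted p was 0.0119 for Cplx2 and 0.0341 for Syn2, nearer to the threshold than in the main fit. With the interneuron score Cplx1 turned to 0.0244 and Syn3 to −0.0823. Syn3 also turned with surrogate variables (−0.0081) and the forebrain score (−0.0017). The cause was not tested. Without 1 library the log2 fold change ranged from −0.08 to −0.04 for Cplx1, −0.29 to −0.25 for Cplx2, 0.03 to 0.07 for Syn1, −0.15 to −0.13 for Syn2 and 0.03 to 0.09 for Syn3. Of all tested genes 409 were called, 112 with surrogate variables, 61 with the interneuron score and 272 to 459 without 1 library, lowest without WT replicate 3. The sign of Timp2, uncalled, turned with surrogate variables (−0.11), the forebrain (−0.0700), granule cell (−0.0550) and interneuron scores (−0.0788) and without cKO replicate 3 (range without 1 library −0.0145 to 0.0874), and that of Timp4 with the forebrain (0.0227) and granule cell scores (0.0037) and without WT replicate 2, WT replicate 6 or cKO replicate 6 (0.0078, 0.0080 and 0.0088, range without 1 library −0.0291 to 0.0088).

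In raw counts without length correction, Cplx1 held 33.9% of complexin counts in WT and 37.3% in cKO, Cplx2 66.1% and 62.7%, and Syn1 42.1% and 45.1%, Syn2 51.5% and 48.1% and Syn3 6.39% and 6.83% of synapsin counts. With the longest transcript as length, Syn2 had 86.8 and Syn3 8.69 CPM per kb in WT. Depth did not limit the members, with at least 982 counts each per library. No paired analysis was possible because the labels name no pairs or litters.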
